A study of Rattus norvegicus with 12 samples.

Results

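Growth hormone is the secreted product of the somatotropes, one of the endocrine cell types of the anterior pituitary. Its gene Gh1 was followed in fetal rat pituitaries together with 9 genes that act on the making or the release of the hormone, namely Ghrhr, Ghsr, Pou1f1, Neurod4, Foxo1, Sstr1, Sstr2, Sstr3 and Sstr5. The members were taken by name, as every probe whose gene name in the scanner files is one of these 10. Of the 10 genes, 9 were on the array, with 12 of its 30367 probes, and Foxo1 is not analysed here. After the filter on dim probes, 7 of the 9 genes were left for testing, among 19350 genes in all.

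The samples were whole pituitaries of Wistar rat fetuses at gestational day 18. They form 4 groups of 3 arrays: TCDD-exposed males, control males, TCDD-exposed females and control females. TCDD is a dioxin that activates the aryl hydrocarbon receptor, and the fetuses are labelled as exposed or control with neither a dose nor a day of dosing given. No genetic change is named in any group. The labels do not say how many pituitaries an array holds or which fetuses were litter mates, so the p-values measure the spread between these samples, which may be technical in part.

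Growth hormone release is driven by growth hormone-releasing hormone from the hypothalamus, which acts on the receptor GHRHR and raises cyclic AMP in the somatotrope. Ghrelin, acting on the receptor GHSR, adds to it, and somatostatin, acting on the receptors SSTR1 to SSTR5, holds it back. The somatotrope lineage depends on the transcription factor POU1F1, which also binds the growth hormone promoter, and in the mouse on NEUROD4, whose gene is a target of FOXO1. In rodents, somatotropes arise late in fetal life, so the day sampled lies early in their history.

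Levels below are log2 intensities relative to the 75th percentile of the array, so that 0 is a bright probe and values near -7 are close to background. Levels of different probes are not compared with each other. On each array 75.1% to 78.4% of the spots lay well above background, and levels of any 2 arrays correlated with r between 0.94 and 0.99. Exposure was checked by the receptor's target genes. Ahrr, a repressor of the receptor, lay at -0.22 to 0.68 on the 6 exposed arrays, against -6.26 to -4.98 on the 6 control arrays, and Cyp1a1, a cytochrome P450, lay at -2.58 to -1.19 on exposed arrays and was well above background on 0 of 6 control arrays. The tissue label was checked by hormone genes of the other pituitary cell types. Tshb and Cga, which encode the subunits of thyrotropin, were bright on all 12 arrays, at 3.25 to 4.72 and 4.43 to 5.87 in exposed pituitaries and at 4.66 to 5.26 and 5.63 to 6.09 in controls. A second tissue was present on 6 arrays. Avil, a marker of sensory ganglion neurons, lay at 0.18 to 1.63 on them and at -3.68 to -3.32 on the other 6. The arrays of high Avil were male TCDD 1 and 2, female TCDD 1 and 3, male control 2 and female control 2, thus 4 of 6 exposed and 2 of 6 control arrays. The summed level of 20 sensory ganglion markers was 5.47 to 6.81 on the arrays of high Avil and 1.81 to 2.29 on the others. It was 2.07 to 6.81 over all exposed arrays and 1.81 to 5.97 over all controls, and the ganglion genes Pou4f1 and Prdm12 were well above background on the 6 arrays of high Avil alone. The arrays were run on 3 slides of 4. The first held male TCDD 1 with the male controls, the second male TCDD 2 and 3 with female control 1 and 2, and the third the exposed females with female control 3.

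Gh1 lay lower in exposed pituitaries of both sexes, but its difference did not pass the test across all genes. The Gh1 probe A_64_P048349 lies on rn4 chromosome 10 from 95692241 to 95692300, on the minus strand. No annotation of that build was used here, so exon and untranslated region are not given for any probe. The sequence is shown because the main result of the hormone gene rests on this probe alone.
Gh1 A_64_P048349: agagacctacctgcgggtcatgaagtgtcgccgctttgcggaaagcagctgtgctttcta
In exposed males the Gh1 level was -4.39, -3.49 and -2.49, against 0.18, -2.45 and -0.37 in control males. All 3 exposed males thus lay below all 3 controls, although male TCDD 3 came close to male control 2. In exposed females the level was -3.97, -3.98 and -1.77, against -0.60, -2.09 and -0.45 in control females. Here the groups overlapped, since female TCDD 3 lay above female control 2. In linear units the processed intensity of the probe was 53.7 to 366 over the 6 exposed arrays and 172 to 1063 over the 6 controls, and it was well above background on all 12. Group means were -3.46 ± 0.95 in exposed males, against -0.88 ± 1.39 in control males, and -3.24 ± 1.27 in exposed females, against -1.05 ± 0.91 in control females (SD, n = 3 each). The difference over both sexes was -2.39 on the log2 scale (standard error 0.59, 95% confidence interval -3.69 to -1.09), which is 5.23-fold lower in exposed pituitaries, with an adjusted p of 0.585 in limma. It was -2.58 in males (adjusted p = 0.507) and -2.19 in females (adjusted p = 1.0). Of all genes, 0.351% had a smaller unadjusted p than Gh1 over both sexes.

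Within the controls the spread of Gh1 went with the second tissue, on 2 arrays that also share the number 2. Exposed arrays did not show this order. Female TCDD 2, of low Avil, lay at -3.98, and female TCDD 3, of high Avil, was the highest at -1.77. The control arrays of high Avil held the 2 lowest control levels, at -2.45 and -2.09, and the other 4 controls lay between -0.60 and 0.18. Among the 6 arrays of low Avil, Gh1 was -2.49 and -3.98 on the 2 exposed arrays, below all 4 controls, and the difference in limma was -2.93. Each sex has 1 exposed array there, so the spread in that fit comes from the controls, and the lone exposed arrays are assumed to vary like them. Among the 6 arrays of high Avil it was -4.39, -3.49, -3.97 and -1.77 on the 4 exposed arrays, against -2.45 and -2.09 on the 2 controls, with a difference of -1.14, where each sex has 1 control array and the spread comes from the exposed arrays. Over all 12 arrays the Gh1 difference was -2.39, and the part of the second tissue in it was not tested. Within the first slide the difference of male TCDD 1 from the 3 male controls was -3.51, and within the third that of the exposed females from female control 3 was -2.79, on the log2 scale. In whole tissue, fewer somatotropes and less Gh1 RNA per somatotrope cannot be told apart. How far the share of pituitary tissue in each sample entered the difference was not tested either. Of 11 measured markers of other pituitary hormone cells, 9 also differed below 0 over both sexes and 2 above.

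**Figure D1:**
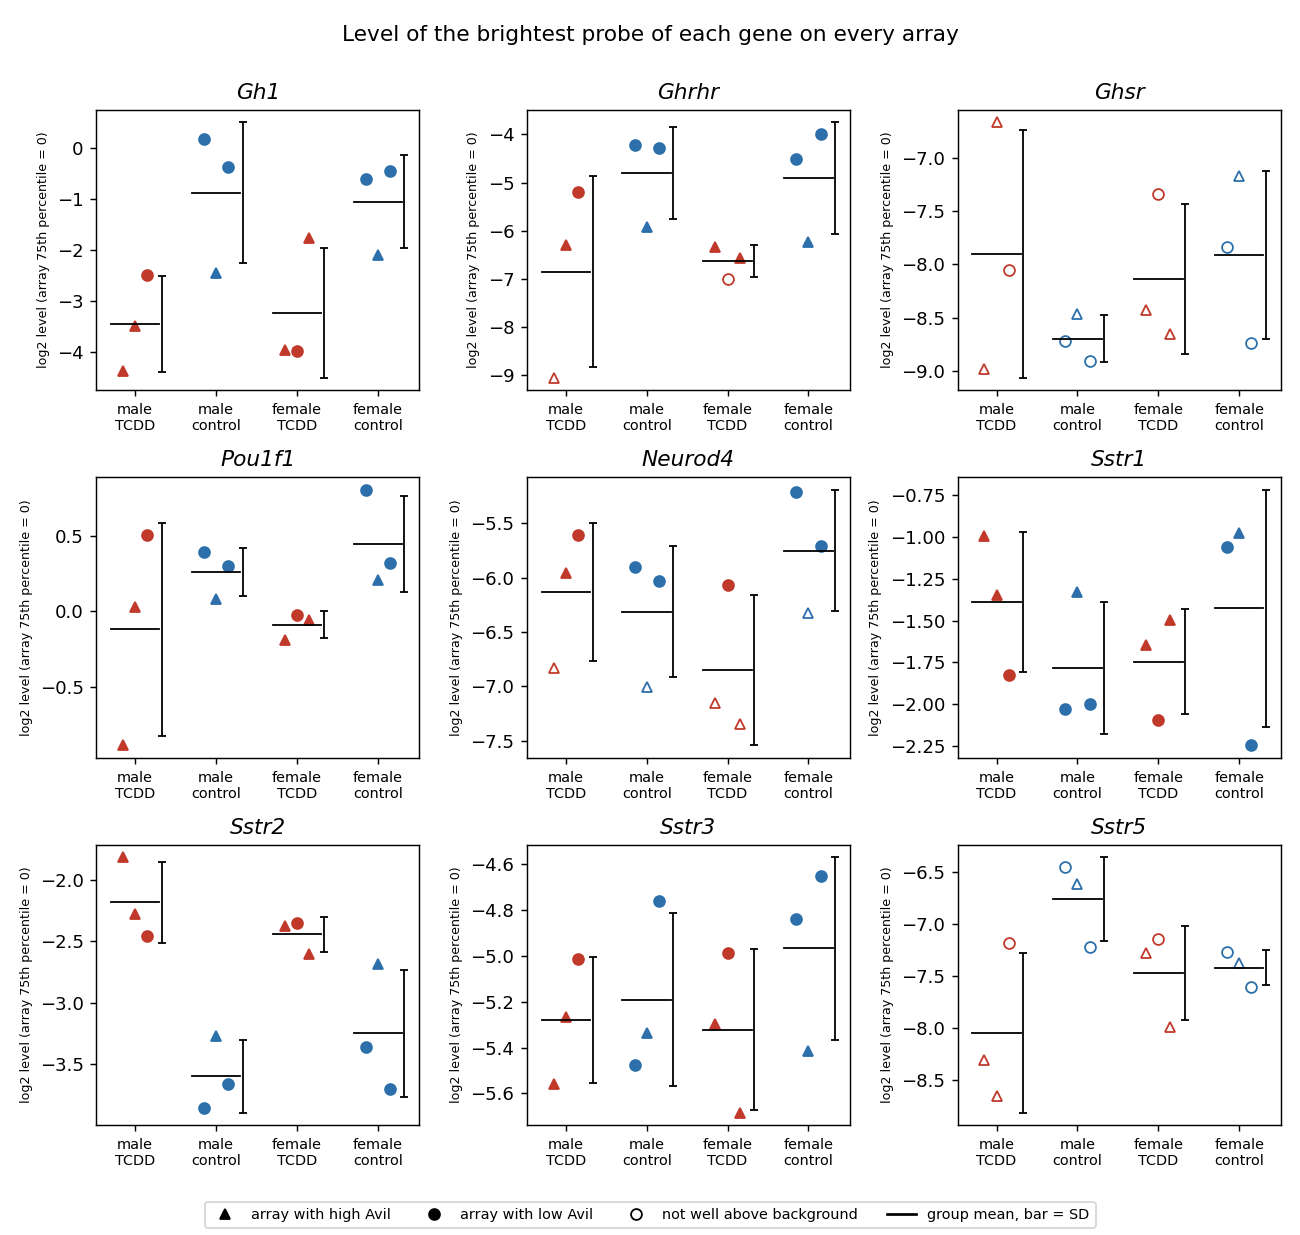
Log2 level (array 75th percentile = 0) of the brightest probe of each of the 9 genes on every array, with exposed arrays in red and controls in blue, triangles for high Avil, open symbols where a probe was not well above background, and lines for group means with SD. Gh1 and Ghrhr lie lower in exposed pituitaries on most arrays, Sstr2 lies higher on all 6 exposed arrays than on any control, and Ghsr and Sstr5 have open symbols throughout.

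Ghrhr encodes the receptor through which the hypothalamus drives somatotropes. It also lay lower in exposed pituitaries without passing the test, and it was dim throughout. Its brighter probe A_43_P11586 lies on rn4 chromosome 4 from 84148363 to 84148422. On that probe the Ghrhr level was -9.06, -6.29 and -5.20 in exposed males, against -4.23, -5.92 and -4.28 in control males. It was -6.35, -7.00 and -6.56 in exposed females, against -4.52, -6.23 and -4.00 in control females. Exposed females lay below all female controls, while male TCDD 3 lay above male control 2, and the probe was not well above background in male TCDD 1 and female TCDD 2. The difference was -1.88 over both sexes (standard error 0.65, limma adjusted p = 0.670), -2.04 in males (adjusted p = 0.507) and -1.72 in females (adjusted p = 1.0). The male value owed much to male TCDD 1, without which it was -0.94, and over both sexes -1.33. With normexp background correction the difference was -0.58 over both sexes, -0.53 in males and -0.63 in females, so its size is uncertain.

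A second Ghrhr probe, A_64_P145142, lies 304 bases upstream on the same strand, from 84148059 to 84148118. It is shown because it gave a second reading that does not rest on the outlying level of male TCDD 1 on the brighter probe.
Ghrhr A_64_P145142: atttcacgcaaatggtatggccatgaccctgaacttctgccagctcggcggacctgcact
This probe was well above background on 0 of 6 exposed arrays and on 4 of 6 controls, and these 4 were the controls of low Avil. Its measured level was -7.47, -7.08 and -6.48 in exposed males, against -4.91, -6.72 and -4.80 in control males, and -7.46, -7.56 and -7.42 in exposed females, against -5.11, -7.00 and -4.58 in control females. Where no array of a group was well above background, its levels were raised to the lowest signal well above background on each array. Against the measured control means, exposed males were then 2.15-fold lower and exposed females 2.14-fold lower. Male control 2 and female control 2 entered those means at levels not well above background, so these folds are not strict bounds. The measured differences were -1.53 in males and -1.92 in females (limma adjusted p = 0.596 and 0.992 over all probes without the filter). With normexp background correction they were -0.26 and -0.36, so their size is uncertain. The 2 Ghrhr probes ordered the arrays almost alike, with Spearman's rho of 0.98 over the 12 arrays. Pearson's r was lower, at 0.87, and the second probe was well above background on 4 controls alone. As with Gh1, the 2 control arrays of high Avil were the lowest controls, at -5.92 and -6.23 on the brighter probe against -4.52 to -4.00 on the others. Among arrays of low Avil the brighter probe differed by -1.85, and among those of high Avil by -0.99.

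Ghsr, the ghrelin receptor gene, stayed at background on all 12 arrays, never flagged as well above it. Its probe on rn4 chromosome 2 (A_44_P120986, 113272703 to 113272762) read -8.98 to -6.66 in exposed and -8.91 to -7.17 in control pituitaries, both ranges of values at background, so no fold is given.

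Among the transcription factor genes, Pou1f1 was bright, with a range of 1.69 over the arrays, and Neurod4 was dim. Pou1f1 was read by A_64_P164627 on rn4 chromosome 11 (2979562 to 2979621). Its level was -0.89, 0.03 and 0.50 in exposed males, against 0.39, 0.08 and 0.30 in control males. It was -0.19, -0.02 and -0.06 in exposed females, against 0.80, 0.21 and 0.32 in control females. The female groups did not overlap, and male TCDD 3 was the exposed array that lay above some controls. The difference was -0.46 over both sexes (standard error 0.21, limma adjusted p = 0.670), -0.38 in males and -0.53 in females. In males it rested on male TCDD 1, without which it was 0.0064. A second probe (A_64_P127971, 2979849 to 2979908) gave -0.34 over both sexes, and the 2 probes correlated with r = 0.99 (Spearman's rho 0.97). On that probe 3 of 6 exposed arrays lay below every control, against 5 of 6 on the first.

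Neurod4, a basic helix-loop-helix gene, was well above background on 7 of 12 arrays. Its probe A_64_P098828 (rn4 chromosome 7, 8536560 to 8536619) read -6.83, -5.96 and -5.60 in exposed males, against -5.90, -7.01 and -6.03 in control males. It read -7.15, -6.06 and -7.34 in exposed females, against -5.21, -6.33 and -5.71 in control females. Both pairs of groups overlapped. The 5 lowest levels, -7.34 to -6.33, were all on arrays of high Avil and were not well above background, and their part in the result was not tested. The difference was 0.18 in males (adjusted p = 0.864) and -1.10 in females (adjusted p = 1.0), and the difference between the sexes was 1.28 with a 95% confidence interval of -0.24 to 2.80 (limma adjusted p = 0.883).

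Sstr2, one of the receptors by which somatostatin restrains growth hormone release, was the only member that lay higher in all 6 exposed pituitaries than in all 6 controls. Its brighter probe A_64_P022015 lies on rn4 chromosome 10 from 103254378 to 103254437. The Sstr2 level on it was -1.81, -2.28 and -2.45 in exposed males, against -3.86, -3.27 and -3.66 in control males. It was -2.37, -2.35 and -2.61 in exposed females, against -3.36, -2.68 and -3.70 in control females. The gap between the lowest exposed array, female TCDD 3, and the highest control, female control 2, was 0.08, and both are arrays of high Avil. Means were -2.18 ± 0.33 in exposed males, against -3.60 ± 0.30 in control males, and -2.44 ± 0.14 in exposed females, against -3.25 ± 0.52 in control females (SD, n = 3 each). The difference over both sexes was 1.11 (standard error 0.19, 95% confidence interval 0.70 to 1.53), or 2.16-fold higher in exposed pituitaries, with an adjusted p of 0.128 in limma. It was 1.42 in males (2.67-fold, adjusted p = 0.201) and 0.81 in females (1.75-fold, adjusted p = 1.0). The gene ranked 18 by unadjusted p over both sexes, and 0.0879% of genes had a smaller p.

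The other Sstr2 probe, A_64_P104583, lies 736 bases upstream from 103253642 to 103253701 and was left out by the filter. It is shown because it read the same gene near background, where 5 of 6 exposed arrays lay above every control and female TCDD 3 lay below female control 2.
Sstr2 A_64_P104583: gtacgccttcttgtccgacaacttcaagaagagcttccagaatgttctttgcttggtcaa
It was well above background in male TCDD 1 and female TCDD 2 and on 0 of 6 controls. Its measured level was -5.42, -6.64 and -6.61 in exposed males, against -8.55, -8.61 and -8.95 in control males, and -7.14, -6.27 and -7.55 in exposed females, against -7.96, -7.30 and -8.86 in control females. With the male controls raised to the lowest signal well above background, the mean of exposed males was 1.24-fold higher. This is not a strict bound, since 1 of 3 exposed males was well above background and the others entered at their measured levels. In females the same ratio was under 1, so no fold is given. With all 6 controls at background, the measured difference depended on the processing. Over both sexes it was 1.77 (limma adjusted p = 0.350 over all probes without the filter) and 0.16 with normexp (adjusted p = 0.792). With slide as a fixed block, a fit of unfiltered probes chosen after the values were seen, it was 2.58 (adjusted p = 0.0324). In females it was 1.05, 0.0365 with normexp and -0.0455 within the arrays of high Avil. The 2 Sstr2 probes correlated with r = 0.95 over the 12 arrays, and Spearman's rho was 0.895.

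**Figure D2:**
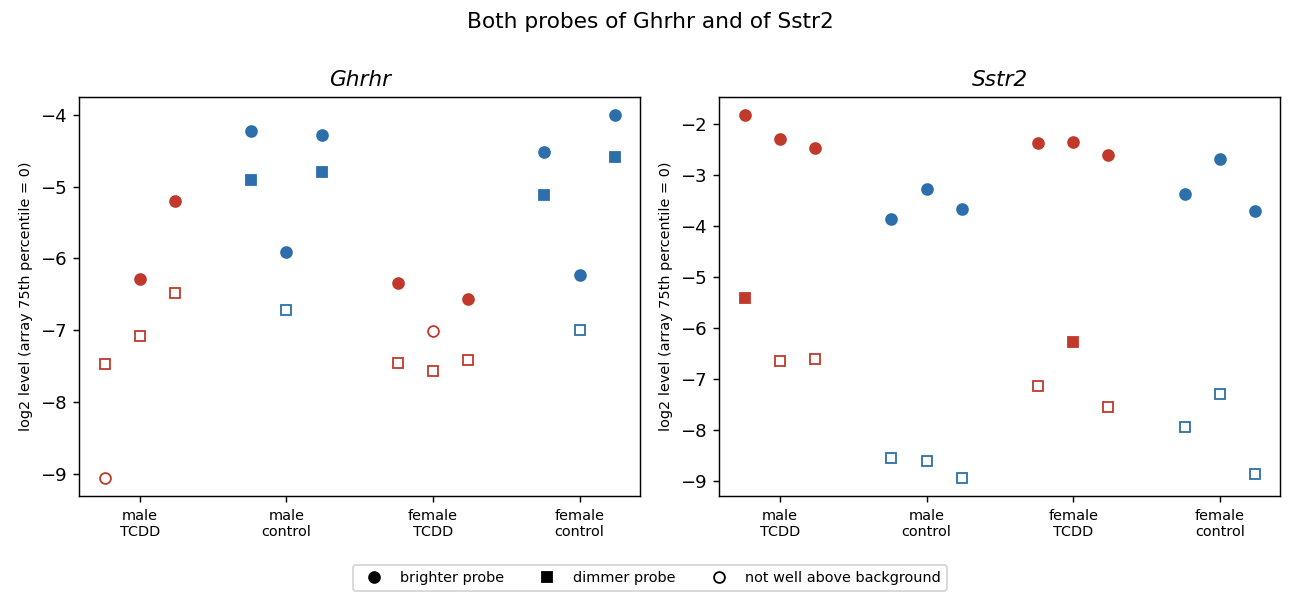
Log2 level (array 75th percentile = 0) on each array of both Ghrhr probes (left panel) and both Sstr2 probes (right panel), with exposed arrays in red, controls in blue, circles for the brighter probe, squares for the dimmer one and open symbols where a probe was not well above background. The dimmer Ghrhr probe is filled on 4 control arrays and no exposed one, and the dimmer Sstr2 probe on 2 exposed arrays and no control.

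Sstr2 also followed the second tissue to some extent. Among controls, the 2 arrays of high Avil held the 2 highest Sstr2 levels, -3.27 and -2.68, and the other 4 lay between -3.86 and -3.36. Among arrays of low Avil, Sstr2 was -2.45 and -2.35 on the exposed arrays, above all 4 controls, and the difference was 1.25. Among arrays of high Avil it was 0.71, and in females within these arrays 0.20. As for Gh1, a sex has 1 exposed array of low Avil and 1 control array of high Avil, so no standard error is given for these differences. Over all 12 arrays the Sstr2 difference was 1.11, and the part of the second tissue in it was not tested. With slide as a fixed block the Sstr2 difference was 1.52 over both sexes (adjusted p = 0.0739), 1.78 in males and 1.26 in females.

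**Figure D3:**
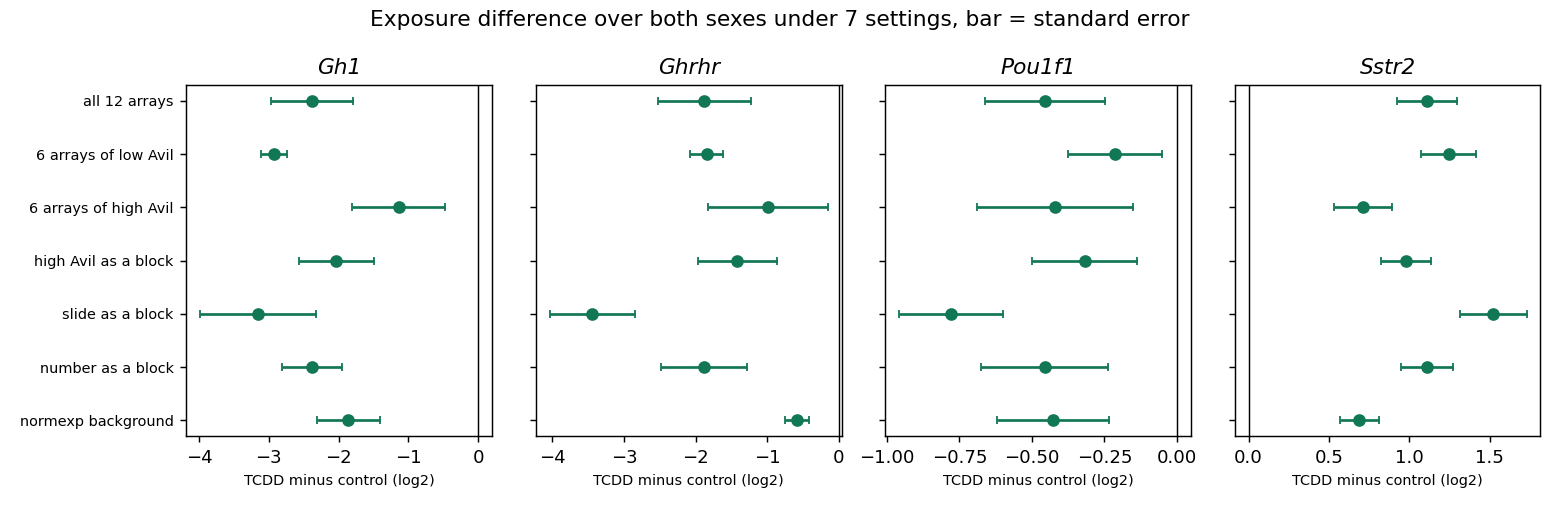
Difference of TCDD minus control over both sexes (log2, bar = standard error) for Gh1, Ghrhr, Pou1f1 and Sstr2 under 7 settings, from all 12 arrays at the top to normexp background correction at the bottom. Gh1 lies between -3.15 and -1.14 and Sstr2 between 0.69 and 1.52, and no point of these 4 genes crosses 0. In the settings without and within the arrays of high Avil, the bars lack the spread of the arm with 1 array per sex.

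Of the other somatostatin receptor genes, Sstr1 and Sstr3 showed no comparable difference over both sexes, and Sstr5 was too dim to judge. Sstr1 (A_64_P090866, rn4 chromosome 6, 78806638 to 78806697) ranged from -2.09 to -0.99 in exposed pituitaries and from -2.24 to -0.98 in controls, with medians of -1.57 and -1.66, so the groups covered the same range. Its difference over both sexes was 0.04 (95% confidence interval -0.52 to 0.59). Sstr3 (A_42_P718331, chromosome 7, 116495844 to 116495903) ranged from -5.68 to -4.99 in exposed pituitaries, with a median of -5.28, and from -5.48 to -4.65 in controls, with a median of -5.09. Its difference was -0.22 (95% confidence interval -0.67 to 0.23). These intervals over both sexes leave out a difference as large as the 1.11 of Sstr2 for both genes. In males alone the Sstr1 interval was wider, at -0.39 to 1.18. Sstr5 (A_43_P11603, chromosome 10, 14740997 to 14741056) stayed at background on all 12 arrays as well, at -8.65 to -7.15 in exposed pituitaries and -7.60 to -6.46 in controls, and no fold is given.

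Over the members the counts were as follows. Of the 7 kept genes 0 passed in males, in females or over both sexes in limma at an adjusted p below 0.05, where 0.0103%, 0.0103% and 0.0207% of all 19350 genes passed. At an unadjusted p below 0.05, 2 members were lower and 1 higher in each of these comparisons. The lower were Gh1 and Ghrhr in males and over both sexes, and Gh1 and Neurod4 in females, and the higher was Sstr2 throughout. Of all genes, 2.96% were lower and 6.38% higher at that threshold in males, 2.02% and 0.656% in females, and 3.61% and 2.85% over both sexes. Groups did not overlap for 1 lower and 1 higher member in males (Gh1 and Sstr2), where 6.03% and 8.39% of all genes did so. In females they did not overlap for 2 lower members, Ghrhr and Pou1f1, and for 1 higher, Sstr2, where 5.51% and 1.44% of all genes did so. With the 6 exposed arrays set against the 6 controls, 0 members lay apart as lower and 1, Sstr2, as higher, where 0.217% and 0.202% of all genes did so. Sstr2 was also the 1 member whose groups stood apart in the same direction within each sex, and 0.377% of all genes did so as lower and 0.3% as higher. For Gh1, for Ghrhr and for the first Pou1f1 probe, 5 of 6 exposed arrays lay below every control. The sixth was female TCDD 3 for Gh1 and male TCDD 3 for the others. The share of all genes with such an order was not counted, so it cannot be called particular to the members. The lowest control was an array of high Avil for each, and Ghrhr was not well above background in male TCDD 1 and female TCDD 2. Over both sexes 5 of 7 members differed below 0, with a median of -0.46, beside 55.8% and a median of -0.02 for all genes.

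**Figure D4:**
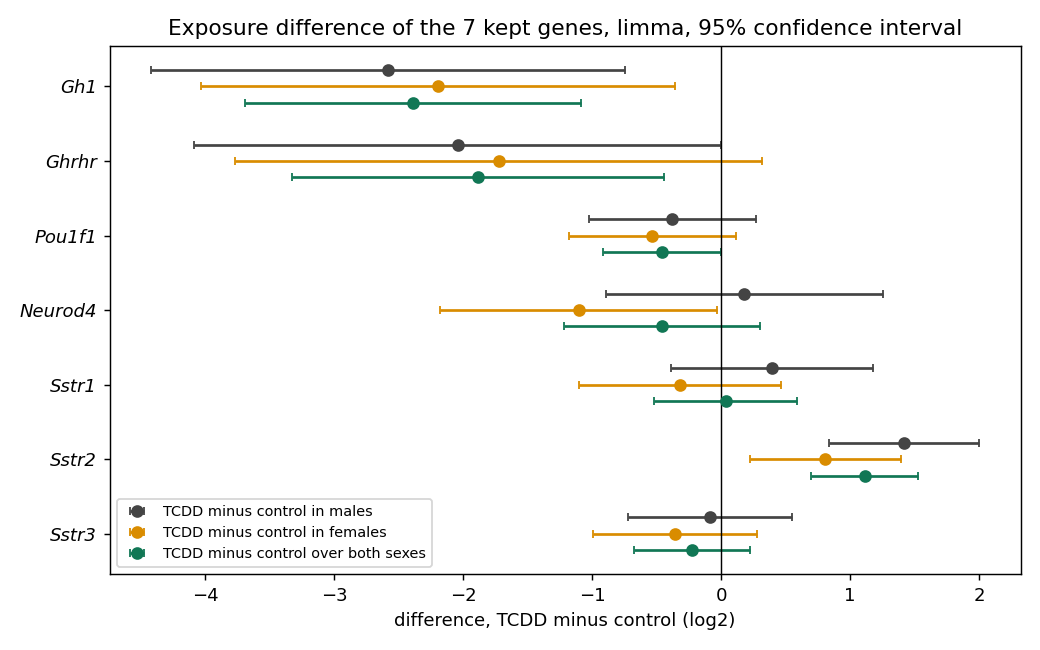
Difference of TCDD minus control (log2) of the 7 kept genes in males (grey), in females (orange) and over both sexes (green), with 95% confidence intervals from limma. The intervals of Gh1 over both sexes (-3.69 to -1.09) and of Sstr2 (0.70 to 1.53) lie on opposite sides of 0, and those of Sstr1 and Sstr3 span it. The intervals are not adjusted for the number of genes tested.

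No difference between the sexes was detectable with 3 arrays a group. The difference between the sexes in the exposure effect (males minus females) was -0.39 for Gh1, with a 95% confidence interval of -2.99 to 2.21, and 0.61 for Sstr2, with an interval of -0.22 to 1.43. None of the 7 members had an adjusted p below 0.883 in limma, where 0% of all genes passed. At an unadjusted p below 0.05 there were 0 members, where 4.46% of all genes lay below it. Between the sexes in controls (male minus female) Gh1 differed by 0.17, Ghrhr by 0.11 and Sstr2 by -0.35. With slide as a fixed block these were 1.87, 3.88 and -1.13, and since no slide held controls of both sexes their size is not settled. Without the block 0 of 7 members passed in limma, where 0.0103% of all genes passed. Again 0 members had an unadjusted p below 0.05, where 5.5% of all genes did.

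Across the 12 arrays Ghrhr and Pou1f1 varied with Gh1, and Sstr2 varied against it. The correlation with Gh1 was 0.87 for Ghrhr, 0.73 for Pou1f1, 0.47 for Neurod4, 0.36 for Sstr3, -0.33 for Sstr1 and -0.92 for Sstr2. These are descriptions over arrays that share exposure, slides and the second tissue, and carry no p. Of the 19349 other genes tested, Sstr2 had the lowest correlation with Gh1. Spearman's rho for the pair was -0.94, and r was -0.87 without the 2 arrays farthest from the median of Gh1. It was -0.84 over deviations from the group means, where Sstr2 was not the lowest but ranked 19329 of 19349 from the highest down. Over the 6 arrays of low Avil it was -0.96 and over the 6 of high Avil -0.73. From the highest r down, Ghrhr ranked 45 and Pou1f1 668 of the 19349 genes. Over deviations from the group means they ranked 387 (r = 0.74) and 1909 (r = 0.59). For Ghrhr the correlations with Gh1 were 0.95 and 0.61 in the low and high Avil arrays, and for Pou1f1 0.52 and 0.74. The weaker ones were not kept there, with 0.23 and -0.14 for Neurod4, -0.04 and -0.31 for Sstr3 and 0.13 and -0.02 for Sstr1. Ghrhr correlated with Sstr2 at -0.88 and with Pou1f1 at 0.88. The array of male TCDD 1 stood at the end of each of these orders, with the lowest Gh1, Ghrhr and Pou1f1, the highest Sstr2 and the highest Avil.

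**Figure D5:**
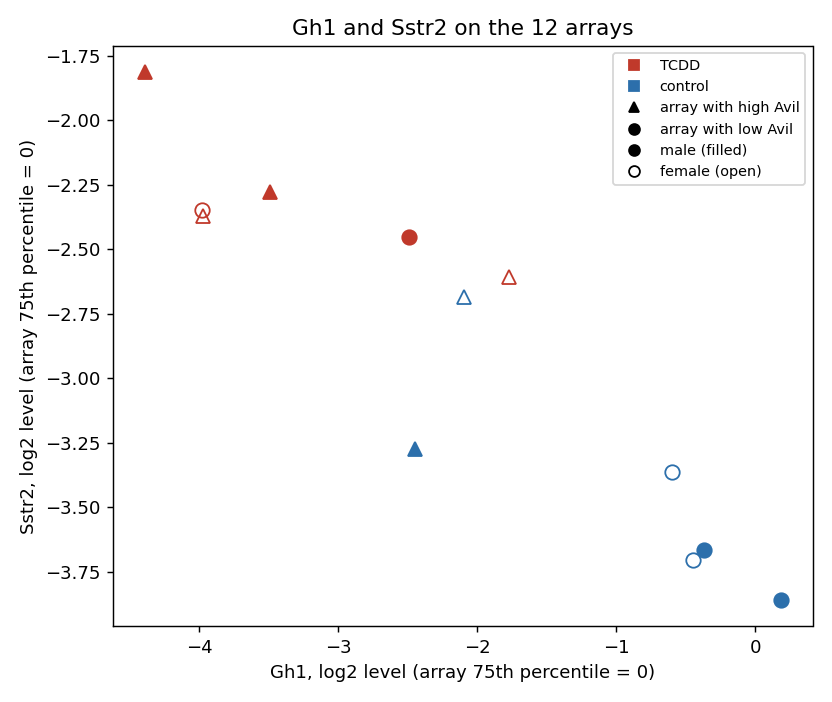
Log2 level of Sstr2 against that of Gh1 (array 75th percentile = 0 on both axes) on the 12 arrays, with exposed arrays in red, controls in blue, triangles for high Avil and open symbols for females. Male TCDD 1 lies at the lowest Gh1 with the highest Sstr2 and the 4 controls of low Avil at high Gh1 with low Sstr2, and the correlation is -0.92.

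The 10 named genes whose levels were most like that of Gh1 had correlations of 0.90 to 0.93 over the 12 arrays. They were Ptgr2, a prostaglandin reductase (r = 0.93), Manf, a secreted protein of the endoplasmic reticulum (0.92), Dach2, a transcription cofactor (0.91), Gldc, a subunit of the glycine cleavage system (0.91), Axin2, a feedback inhibitor of Wnt signalling (0.91), Ankrd54 (0.91), Derl3, which acts in degradation of misfolded proteins (0.91), the cation exchanger gene Slc24a4 (0.90), Dapl1 (0.90) and Sec11c, a subunit of signal peptidase (0.90). None of the 10 passed the exposure test. Their differences over both sexes ran from -0.90 for Dapl1 (limma adjusted p = 0.0771) and -0.89 for Derl3 (0.465) to -0.17 for Sec11c (0.670). Differences below 0 go with the choice, since the genes were picked for levels like those of Gh1, which lay lower in exposed pituitaries. Over deviations from the group means the 5 most alike were Marchf3 (r = 0.97), Pef1 (0.94), Sec11c (0.94), Rbm33 (0.93) and Eif2b1 (0.92), and only Sec11c stood in both sets.

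Genes around the members were described by lists. In the cyclic AMP and phospholipase pathways below GHRHR and GHSR, 0 of 21 genes passed over both sexes in limma. Of these 11 lay above 0 and 10 below, with a median of 0.10 beside -0.02 for all genes. The smallest p-values belonged to Crem, a cyclic AMP-responsive transcription factor gene (-0.33, adjusted p = 0.670), and Prkacb, a catalytic subunit of protein kinase A (0.16, adjusted p = 0.670). Below the somatostatin receptors, 0 of 10 measured genes passed, with a median of 0.04. Gnao1, a G protein subunit of neurons (0.87), had the smallest p there, and its level was 0.19 to 1.54 on the arrays of high Avil and -1.65 to -1.11 on the others. Ptpn6, a phosphatase, differed by -0.18.

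Of 18 measured regulators of the pituitary lineages 0 passed, with 7 above 0, 11 below and a median of -0.10. Rxrg, the retinoid X receptor gamma gene, differed by 0.49 (adjusted p = 0.142) and lay higher on all 6 exposed arrays (0.91 to 1.40) than on all 6 controls (0.42 to 0.78). Lhx3, a homeobox gene of the early pituitary, differed by -0.37 (adjusted p = 0.670). In growth hormone and insulin-like growth factor action 0 of 10 measured genes passed, with a median of -0.07. Ghrl, which encodes the ghrelin precursor, had a level of -6.06 to -4.52 in exposed pituitaries, against -5.27 to -4.19 in controls (-0.75, adjusted p = 0.670), and the growth hormone receptor gene Ghr differed by 0.16. The genes of the other ligands and of the remaining somatostatin receptor, chosen after their values were seen, differed by -0.31 for Ghrh, 0.14 for Sst and 0.05 for Sstr4. Of 11 measured markers of other pituitary hormone cells 0 passed, with 9 below 0 and a median of -0.39, and Tshb (-0.76, adjusted p = 0.661) and Fshb (-1.26, adjusted p = 0.670) had the smallest p. Sensory ganglion markers lay above 0 for 19 of 20 genes, with a median of 1.5, and peripheral glia markers for 7 of 7, with 0.92, and 0 of either passed. Skeletal muscle markers lay below 0 for 8 of 8 genes, with a median of -0.50, and posterior lobe markers for 4 of 5, with -0.34. Cartilage and bone markers lay above 0 for 6 of 7, with 0.25. Medians of endothelium, erythroid, macrophage and stratified epithelium markers over both sexes lay between -0.11 and 0.02, and 0 genes of these lists passed. In males and females apart these medians had opposite signs. They were -0.25 and 0.10 for endothelium, -0.31 and 0.07 for erythroid and -0.45 and 0.19 for macrophage markers. For stratified epithelium they were 0.25 in males and -1.07 in females.

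Promoters of 7 of the 9 genes on the array were found in the RefSeq table of the GRCr8 build, as 8 windows of 300 bases, of which 250 lie before the gene's start and 50 after it. They were searched on both strands for GCGTG, the core to which the activated aryl hydrocarbon receptor binds, for TATNCAT, a POU1F1-like motif, and for GTAAACA, a FOXO-like motif. The core occurs in 29.7% of the 33469 rat promoters of that table, so a match is common. Windows of Sstr2, Sstr1, Neurod4 and Ghrhr held it, with 2 matches each in Neurod4 and Sstr2, and those of Ghsr, Sstr3 and Sstr5 and the second Ghrhr window did not. TATNCAT, present in 9.88% of promoters, and GTAAACA, in 3.78%, matched none of the 8 windows. The regions before the start of the 2 receptor genes with the largest differences, Sstr2 above 0 and Ghrhr below, are printed with the GCGTG core, or its reverse complement, in capitals. That of Sstr2 is at chr10:99163103-99163352 and the first of Ghrhr at chr4:85830236-85830485, both on the plus strand. The matches lie 56 bases before the start in Sstr2 and 21 bases before it in Ghrhr. A match describes the letters only, and no binding was measured.
Sstr2 promoter: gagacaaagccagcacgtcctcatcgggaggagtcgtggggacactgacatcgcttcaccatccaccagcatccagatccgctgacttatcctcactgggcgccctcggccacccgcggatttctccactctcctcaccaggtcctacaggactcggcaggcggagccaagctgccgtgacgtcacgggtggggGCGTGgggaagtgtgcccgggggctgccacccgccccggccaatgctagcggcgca
Ghrhr promoter: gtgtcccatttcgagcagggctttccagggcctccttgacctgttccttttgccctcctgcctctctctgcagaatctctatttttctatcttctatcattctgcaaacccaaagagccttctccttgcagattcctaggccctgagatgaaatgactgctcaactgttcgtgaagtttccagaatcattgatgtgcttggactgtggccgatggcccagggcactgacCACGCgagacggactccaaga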

How the data were processed

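RNA from 12 fetal pituitary samples was amplified, labelled with Cy3 and hybridised to one-colour arrays of 60-base probes, per the labels' protocols. The deposited scanner files hold spot intensity on a linear scale, background-corrected by Agilent Feature Extraction 10.7.1.1 per the file headers, which give probe positions on rn4. Version 9.5.1.1 stands in the submitters' processing notes. A table of intensity values that the authors deposited was used as an alternative. Each column had a median of 83.5 and ranked probes as the scanner file did, and its quantile normalization was inferred from the equal distributions.

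Control and outlier spots were left out, processed intensity was converted to log2, centred on each array's 75th percentile and averaged over replicate spots. Probes well above background on at least 3 arrays with at least 10 values were kept, 22430 of 30367, and the brightest of them stood for its gene. Names came from the reference table by accession for 18006 probes and by symbol for 3213, and 9148 kept the file's name. No spot was saturated. The number of arrays limits the precision.

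limma 3.58.1 (R 4.3.3) fitted 4 group means to all 12 arrays with a variance trend on intensity, and p-values were adjusted over 19350 genes by Benjamini-Hochberg, with genes called at an adjusted p below 0.05. The fit was run on simulated data with independent noise for each gene and array, without a second tissue or slides. Such data cannot show how the fit behaves on these arrays. Alternatives changed the background correction, scaling, filter, probe rule, weights, blocks and arrays. The members and gene lists were chosen with earlier results of these data known. Named outside the members are Cyp1a1 and Ahrr, the 10 and 5 genes most like Gh1, and of each list up to 2 genes of smallest p. Avil, Pou4f1, Prdm12 and Cga were named beyond that rule to describe the tissue, and Ghrh, Sst and Sstr4 after their values were seen.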

Additional observations from a re-analysis of the deposited data

Results flagged for a closer look

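The second Sstr2 probe, A_64_P104583, did not pass the filter on dim probes, so it did not stand for the gene in the tests over 19350 genes and was tested only over all probes without the filter. It was well above background on 2 exposed arrays, male TCDD 1 and female TCDD 2, and on 0 of 6 control arrays. Of these 2 arrays the first had high Avil and the second low Avil.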

How the results depend on the processing

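Over both sexes, in males and in females, Gh1 and Ghrhr stayed below 0 and Sstr2 above 0 under every alternative run. Over both sexes Gh1 ranged from -3.15 (slide as a fixed block) to -1.14 (within the arrays of high Avil), Ghrhr from -3.44 (slide as a fixed block) to -0.58 (normexp background correction, which shrinks differences of dim probes), and Sstr2 from 0.69 to 1.52. Array quality weights moved calls. With them Gh1 in males was -2.60 (adjusted p = 0.0193, over alternatives 0.0193 to 1.0), Ghrhr -1.57 and Sstr2 1.32, so that 3 members were called in males, and 1 member, Sstr2 (1.02, adjusted p = 0.0166), over both sexes. That fit gave male TCDD 2 a weight of 9.12 and called 27.5% of all genes in males, and 0.305% over both sexes. Under all other alternatives 0 of the kept members were called. Of all genes, 4 were called over both sexes in the fit of all 12 arrays, 15 with slide as a fixed block, 59 with quality weights and 0 without the arrays of high Avil, and in males 2, 26, 5316 and 0 in the same order. Deviations of same-numbered exposed and control arrays of one sex correlated with r from -0.70 to 0.44, with 2 of 6 pairs over 0.1. For other numbers r ran from -0.62 to 0.55, with 6 of 12 pairs over 0.1. The 2 same-numbered pairs over 0.1 were alike in Avil and the others were not, so whether numbers pair the samples cannot be told. With the replicate block of the number, Gh1 was -2.39 (adjusted p = 0.319) and Sstr2 1.11 (adjusted p = 0.219) over both sexes, and no member was called. Leaving out 1 array at a time gave Gh1 between -3.36 and -2.05 in males, -2.93 and -1.82 in females and -2.78 and -2.12 over both sexes, and Sstr2 between 1.00 and 1.25 over both sexes.

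Signs turned for these differences, and the cause was not tested. In males Pou1f1 was 0.16 without the arrays of high Avil (-0.69 to 0.0064 with 1 array left out), Neurod4 -0.52 with slide as a fixed block and within slide 1 (-0.17 to 0.53 with 1 array left out), and Sstr3 0.13 with the mean of the ganglion markers as covariate, 0.11 without the arrays of high Avil and 0.0605 with high Avil as a block (-0.23 to 0.13 with 1 array left out). In females Sstr1 was 0.50 with slide as a fixed block and within slide 3. Over both sexes Sstr1 was -0.21 with the covariate, -0.13 without the arrays of high Avil, -0.22 within them and -0.17 with high Avil as a block (-0.17 to 0.15 with 1 array left out). For the difference of the exposure effect between the sexes, Gh1 was 1.06 and Ghrhr 1.80 without the arrays of high Avil, Ghrhr 0.10 with normexp and 0.0457 with quality weights, and Pou1f1 -0.73 with slide as a fixed and -0.12 as a random block. With 1 array left out these were -1.17 to 0.35 for Gh1, -1.14 to 0.78 for Ghrhr and -0.15 to 0.54 for Pou1f1. For male minus female controls, slide as a fixed block gave 0.91 for Pou1f1 (0.0358 as a random block), 0.51 for Neurod4 (-0.56 without the block) and 0.35 for Sstr3, with Gh1, Ghrhr and Sstr2 at 1.87, 3.88 and -1.13, and leaving out 1 array gave -0.36 to 0.95 for Gh1 and -0.55 to 0.66 for Ghrhr.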
